A study of Mus musculus with 6 samples.

Results

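Hepatocytes store triacylglycerol and cholesteryl esters in lipid droplets. The 10 genes followed here encode proteins that coat, fuse or empty these droplets, in livers of mice with or without hepatocyte SHMT2, the mitochondrial enzyme that converts serine to glycine. They were chosen by name, as the rows of the count table whose Ensembl identifier belongs to *Plin2*, *Plin3*, *Plin4*, *Plin5*, *Cidea*, *Cideb*, *Cidec*, *Pnpla2*, *Hsd17b13* and *G0s2*. All 10 were found among the 49671 genes of the table, and all 10 were among the 16089 genes that passed the filter on low counts. In GRCm38 they are protein-coding genes at separate places, except that *Plin3* (chr17:56277476-56292873), *Plin4* (chr17:56100591-56109803) and *Plin5* (chr17:56111601-56117596) lie on the same chromosome. *Plin2* is at chr4:86648386-86670060, *Cideb* at chr14:55754050-55758458, *Cidec* at chr6:113424634-113435760, *Pnpla2* at chr7:141455198-141460743, *Hsd17b13* at chr5:103955440-103977410 and *G0s2* at chr1:193272161-193273217, and *Cidea* is on chromosome 18. Liver RNA was sequenced from 6 male mice of the C57BL/6 J background. The 3 controls, WT in the deposited labels and SHMT2 fl/fl in the study, carried a floxed *Shmt2* gene. In the 3 SHMT2 HKO mice (KO in the labels) the same allele was combined with Cre under the albumin promoter, which acts in hepatocytes, so that other liver cells can still express *Shmt2*. Both genotypes received the AMLN diet, a high-fat, high-fructose diet with added cholesterol, from the age of 4 weeks, and livers were collected 18 weeks later, at 22 weeks, after a short fast. No chow-fed liver was sequenced here, so every comparison is between genotypes on this diet.

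A lipid droplet is a core of neutral lipid under a single layer of phospholipid. Perilipins sit on this layer and limit the access of lipases. CIDE proteins pass lipid from smaller to larger droplets. Adipose triglyceride lipase, the product of *Pnpla2*, removes the first fatty acid from a stored triacylglycerol; G0S2 inhibits this lipase and ABHD5 activates it. Droplet coats are known to accumulate in fatty liver, and several of their genes are known targets of the PPAR nuclear receptors.

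The libraries held 23090837 to 34089722 counts on genes, so that 3 counts, the floor used here, correspond to 0.0734 to 0.152 CPM (counts per 1000000 of TMM-scaled library size). The targeted gene, *Shmt2*, fell from 99.2 ± 8.51 to 24.2 ± 4.51 CPM (SD, n = 3 each), with a log2 fold change of -2.04 (adjusted p = 0.000639, edgeR). Here and below, edgeR stands for its quasi-likelihood F test, two-sided, with Benjamini-Hochberg adjustment over all genes tested, and a gene was called at an adjusted p under 0.05. SHMT2 HKO mouse 1 stood apart by transcripts of fat tissue. It held 8.66 CPM of *Ucp1*, the uncoupling protein gene of brown fat, 2.67 of *Adipoq* and 4.24 of *Plin1*, the perilipin gene of adipocytes, while each of these was at most 0.130 CPM in the other 5 livers. Summed over 8 adipocyte markers, SHMT2 fl/fl livers held 29.0 to 34.2 CPM and SHMT2 HKO livers 53.8 to 175. Of the 3 of these markers that passed the filter, 2 were called higher, *Cfd* and *Lipe*, and *Ucp1* and *Adipoq* were at 0 counts in SHMT2 HKO mice 2 and 3. The fold changes of droplet genes that moved most without this mouse are given with and without it.

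Of the 10 droplet genes, 4 were higher in SHMT2 HKO livers and 0 were lower (edgeR), where 12.5% of all genes tested were called higher and 16.5% lower. The 4 were *Cidea*, *G0s2*, *Plin2* and *Cideb*. Without SHMT2 HKO mouse 1 their log2 fold changes were 4.54, 1.66, 0.95 and 0.90, each larger than with it. All 10 fold changes were above 0, so none was lower at an unadjusted p under 0.05 either, and DESeq2 and limma-voom also called 0 lower. The median log2 fold change of the 10 genes was 0.67, against 0.027 for all genes tested. For 5 of the 10, each SHMT2 HKO liver lay above each control, a pattern held by 21.9% of all genes. The opposite pattern was held by 0 of the 10 and by 25% of all genes.

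**Figure D1:**
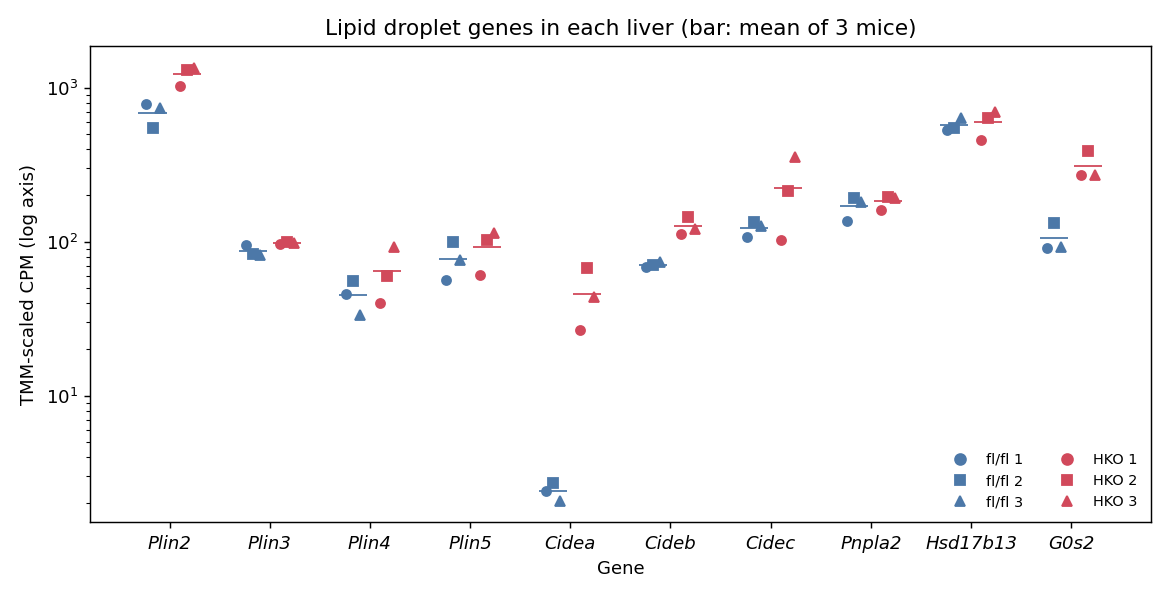
TMM-scaled CPM (log axis) of the 10 droplet genes in 3 SHMT2 fl/fl (blue) and 3 SHMT2 HKO (red) livers, with a symbol for each mouse and a bar at the group mean. *Cidea* lies between 2.09 and 2.71 CPM in SHMT2 fl/fl livers and between 26.6 and 67.8 in SHMT2 HKO livers, while the groups overlap for *Pnpla2* and *Hsd17b13*.

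*Plin2*, which encodes the main droplet coat of hepatocytes, was the most abundant perilipin transcript and the only perilipin called by edgeR with all mice. It was at 785, 547 and 739 CPM in livers of SHMT2 fl/fl mice 1 to 3, and at 1023, 1308 and 1354 in the SHMT2 HKO mice in the same order. Every SHMT2 HKO liver was above every control, and the means differed 1.78-fold. The log2 fold change was 0.83 (standard error 0.20, 95% interval 0.37 to 1.29, adjusted p = 0.0178, edgeR). The call was lost without SHMT2 fl/fl mouse 2 (0.69, adjusted p = 0.0785), without SHMT2 fl/fl mouse 3 (0.88, 0.0612) and without SHMT2 HKO mouse 2 (0.79, 0.0557). It was kept without SHMT2 HKO mouse 1 (0.95, adjusted p = 0.00801).

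*Plin3* encodes a perilipin that moves from the cytosol to new droplets. Its level was 95.3, 83.1 and 82.3 CPM in controls and 96.9, 99.2 and 98.4 in SHMT2 HKO livers. The groups did not overlap, but the log2 fold change of 0.18 was not called (95% interval -0.082 to 0.43, adjusted p = 0.276, edgeR). *Plin5*, whose protein links droplets to mitochondria in oxidative tissues, was at 56.9, 100.2 and 76.7 CPM in controls against 61.2, 103 and 114. These groups overlapped (log2 fold change 0.25, 95% interval -0.37 to 0.87, adjusted p = 0.525, edgeR), and the estimate ran from 0.060 without SHMT2 HKO mouse 3 to 0.48 without SHMT2 HKO mouse 1. *Plin4*, a perilipin gene best known from adipocytes and muscle, was at 45.5, 55.8 and 33.4 CPM in controls against 40.0, 59.7 and 92.9, with SHMT2 HKO mouse 1 inside the control range. Its log2 fold change was 0.52 (95% interval -0.19 to 1.22, adjusted p = 0.243, edgeR) with all mice and 0.77 without that mouse (adjusted p = 0.0436), which passed the threshold, but 0.13 without SHMT2 HKO mouse 3 (adjusted p = 0.736) and 0.34 without SHMT2 fl/fl mouse 3 (0.524).

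Scaled to gene length, most perilipin transcripts were *Plin2*. It made up 78.8%, 66.2% and 76.6% of the summed counts per kilobase of the 4 genes in controls, and 82.5%, 81.3% and 80.0% in SHMT2 HKO livers. The groups did not overlap, and an exact permutation test gave p = 0.1, two-sided, the smallest that 3 mice against 3 allow. The share of *Plin3* was 8.70% ± 0.727 in controls and 6.12% ± 0.992 in SHMT2 HKO livers (SD, n = 3 each, exact permutation p = 0.1), again without overlap and in the opposite direction to its CPM. *Plin5* held 14.5% ± 5.48 and 10.1% ± 1.60, with overlapping groups (exact permutation p = 0.3), as did *Plin4* with 2.995% ± 1.02 and 2.52% ± 0.725 (exact permutation p = 0.6). These shares do not depend on how libraries are scaled to each other, but they depend on the gene length used. With the longest transcript as length, the difference in share was 5.21 percentage points for *Plin2*, -1.78 for *Plin3*, -0.358 for *Plin4* and -3.07 for *Plin5*. SHMT2 fl/fl mouse 2 also weighed on the shares. Without it the difference in share, in percentage points, went from 7.39 to 3.55 for *Plin2*, from -4.33 to -1.36 for *Plin5* and from -0.478 to 0.0765 for *Plin4*.

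The largest difference was in the CIDE family. *Cidea* encodes a droplet fusion protein of brown fat that fatty hepatocytes also make. It was at 2.42, 2.71 and 2.09 CPM in controls, from 99, 72 and 80 counts, and at 26.6, 67.8 and 43.6 CPM in SHMT2 HKO livers, from 627, 1338 and 1107 counts. The groups were far apart, with means that differed 19.1-fold. The log2 fold change was 4.26 (standard error 0.35, 95% interval 3.45 to 5.07, adjusted p = 0.000763, edgeR). SHMT2 HKO mouse 1, the liver with adipocyte transcripts, had the lowest *Cidea* of its group, and without it the log2 fold change was 4.54 (adjusted p = 5.79e-05, edgeR). *Cidea* was called in 16 of 16 alternative settings, at 3.56 to 4.54.

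*Cideb*, the CIDE gene of the normal hepatocyte, also acts in the lipidation of very-low-density lipoprotein. It was at 69.2, 70.3 and 73.9 CPM in controls and rose to 113, 146 and 120.3 with SHMT2 HKO, without overlap (log2 fold change 0.83, standard error 0.13, 95% interval 0.53 to 1.13, adjusted p = 0.00358, edgeR). The call held with each of the 6 mice left out. Of its exon bases, 1136 (76.3%) also belong to exons of *Nop9* on the opposite strand, and whether counting used strand is not given in the sources used here, so reads of this pair may not have been separated. *Nop9* was at 23.3 ± 1.95 CPM in controls and 23.3 ± 2.22 in SHMT2 HKO livers (SD, n = 3 each).

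*Cidec*, also known as FSP27, drives the growth of large droplets and was the droplet gene that varied most among SHMT2 HKO mice. Controls were at 108, 135 and 127 CPM and SHMT2 HKO mice 1, 2 and 3 at 103, 214 and 357. Mouse 1 was below every control, and mice 2 and 3 were above every control. The log2 fold change of 0.87 was not called (standard error 0.39, 95% interval -0.033 to 1.77, adjusted p = 0.133, edgeR). It passed the threshold in DESeq2 (0.88, adjusted p = 0.0466) and without SHMT2 HKO mouse 1 (1.22, adjusted p = 0.00421, edgeR), and was 0.34 without mouse 3 (adjusted p = 0.423).

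Within the CIDE family, *Cidea* took 2.03%, 1.99% and 1.56% of the summed counts per kilobase in controls and 15.4%, 22.2% and 12.5% in SHMT2 HKO livers. The groups did not overlap (exact permutation p = 0.1, the smallest possible). *Cidec* was the largest CIDE transcript per length in each control, at 54.5%, 59.4% and 57.0%. The length of *Cideb* included all its exon bases, of which 76.3% are shared with *Nop9*. How reads on the shared bases were counted is not known, so the CIDE shares and this order carry that limit. In SHMT2 HKO livers its share was 35.8%, 42.0% and 61.6%, so that the groups overlapped (exact permutation p = 0.4). *Cideb* held 41.2% ± 2.41 in controls and 36.8% ± 11.5 in SHMT2 HKO livers (SD, n = 3 each, exact permutation p = 0.6). Its difference of -4.36 percentage points was -10.4 without SHMT2 HKO mouse 1 and 1.12 without mouse 3, and that of *Cidec* went from -10.5 to -5.12 and -18.1. The difference of *Cidea*, 14.8, was 12.1 to 16.9 with a mouse left out.

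The lipase gene and the gene of its inhibitor gave different results. *Pnpla2* was at 136, 192 and 182 CPM in controls and at 161, 196 and 193 in SHMT2 HKO livers, with overlapping groups and a log2 fold change of 0.11 (95% interval -0.27 to 0.49, adjusted p = 0.658, edgeR). *G0s2* was at 90.7, 132 and 92.7 CPM in controls and at 272, 392 and 269.9 in SHMT2 HKO livers. The lowest SHMT2 HKO liver was above the highest control, and the log2 fold change was 1.56 (standard error 0.22, 95% interval 1.07 to 2.06, adjusted p = 0.00223, edgeR). It was called with each mouse left out, at 1.37 to 1.76. As RPKM, the CPM divided by exon length in kilobases, *G0s2* went from 121 ± 26.9 to 357 ± 80.0 and *Pnpla2* from 56.2 ± 9.94 to 60.7 ± 6.52 (SD, n = 3 each).

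The promoters of this pair, and that of the most abundant coat gene, are shown because the transcripts of these genes differed in their response. Each sequence is from RefSeq (GRCm38.p6), reads 5′ to 3′ on the strand of its gene, and ends before the first transcribed base of the annotation. Capitals mark a match to the direct repeat that PPAR and RXR bind as a pair (AGGTCA, any base, AGGTCA), on either strand, with at least 10 of the 12 fixed letters.
G0s2 (chr1:193273218-193273438, minus strand, 221 bases): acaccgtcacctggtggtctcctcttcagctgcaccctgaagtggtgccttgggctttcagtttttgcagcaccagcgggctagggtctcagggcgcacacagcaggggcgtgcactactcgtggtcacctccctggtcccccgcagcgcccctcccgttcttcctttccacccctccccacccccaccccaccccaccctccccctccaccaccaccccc
Pnpla2 (chr7:141454938-141455187, plus strand, 250 bases): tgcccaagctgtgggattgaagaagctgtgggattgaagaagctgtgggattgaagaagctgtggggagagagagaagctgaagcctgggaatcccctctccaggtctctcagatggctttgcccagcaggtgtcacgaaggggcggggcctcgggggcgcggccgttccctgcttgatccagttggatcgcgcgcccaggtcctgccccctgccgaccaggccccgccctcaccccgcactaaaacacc
Plin2 (chr4:86670061-86670309, minus strand, 249 bases): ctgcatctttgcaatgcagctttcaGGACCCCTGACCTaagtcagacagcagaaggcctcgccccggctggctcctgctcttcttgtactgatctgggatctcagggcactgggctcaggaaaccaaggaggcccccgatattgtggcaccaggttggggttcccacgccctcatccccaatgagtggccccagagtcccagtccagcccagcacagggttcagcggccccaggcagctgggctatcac
The match before *Plin2* lies 225 to 213 bases upstream of the start, on the strand opposite to the gene, and has 10 of 12 letters. RefSeq windows of 300 bases (250 before and 50 after a start) were searched for 9 of the 10 genes. Of their 11 windows, 1 held a match, against 3.86% of 32851 windows of all genes. For *G0s2* and *Pnpla2* there was no match in this window.

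The ratio of *G0s2* to *Pnpla2* counts inside a library needs no scaling between libraries. It was 0.668, 0.689 and 0.509 in controls 1, 2 and 3 and 1.69, 1.998 and 1.40 in the SHMT2 HKO mice, without overlap. The counts are not divided by gene length, so a ratio of 1 does not mark equal levels. As RPKM, *G0s2* was at 104, 152 and 106 and *Pnpla2* at 44.9, 63.5 and 60.3 in controls 1, 2 and 3. The geometric means of the count ratio differed 2.72-fold. The exact permutation test gave p = 0.1, two-sided, the smallest possible, or 0.7 after Benjamini-Hochberg adjustment over 7 ratios. The other 6 ratios overlapped between genotypes, with log2 differences from -0.60 (*Plin5* to *Plin2*) to 0.12 (*Plin5* to *Pnpla2*). Single mice moved both ends. *Plin5* to *Plin2* was -0.24 without SHMT2 fl/fl mouse 2 and -0.91 without SHMT2 fl/fl mouse 1, and *Plin5* to *Pnpla2* was 0.30 without SHMT2 HKO mouse 1 and -0.012 without mouse 3. *Cidec* to *Plin2* differed by -0.14 (exact permutation p = 0.9), and by 0.21 without SHMT2 HKO mouse 1, 0.085 without SHMT2 fl/fl mouse 2 and -0.49 without SHMT2 HKO mouse 3. *G0s2* to *Pnpla2* stayed at 1.31 to 1.58 on the log2 scale with a mouse left out.

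**Figure D2:**
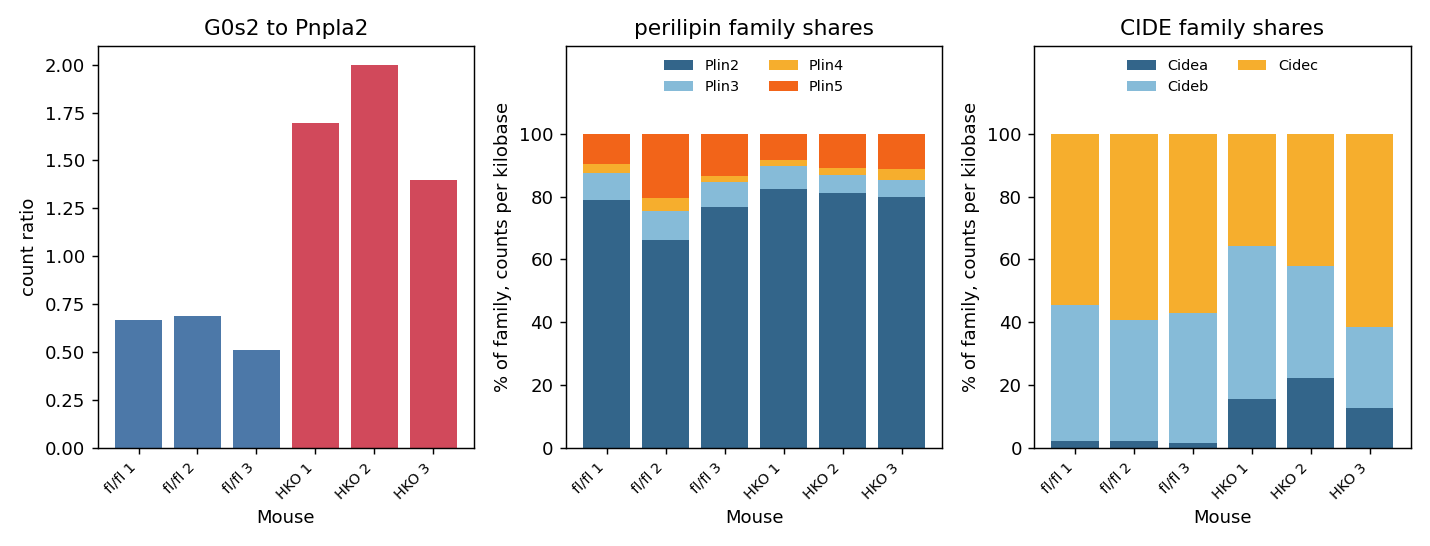
Count ratio of *G0s2* to *Pnpla2* in each liver (left), and shares of the perilipin (middle) and CIDE (right) transcripts in percent of the family's counts per kilobase. The ratio lies at 0.509 to 0.689 in SHMT2 fl/fl and at 1.40 to 1.998 in SHMT2 HKO livers, and *Cidea* takes 12.5% to 22.2% of CIDE transcripts in SHMT2 HKO livers. CIDE shares use all exon bases of *Cideb*, of which 76.3% are shared with *Nop9*.

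*Hsd17b13* encodes a droplet-bound dehydrogenase of hepatocytes. It was at 531, 547 and 641 CPM in controls and at 461, 638 and 697 in SHMT2 HKO livers. The groups overlapped, and the log2 fold change was 0.064 (95% interval -0.37 to 0.50, adjusted p = 0.826, edgeR). Per length of all annotated exons it led the 10 genes in controls, at 266 ± 27.5 RPKM, followed by *Plin2* at 197 ± 36.0 and *G0s2* at 121 ± 26.9 (SD, n = 3 each). These exons cover 2157 bases for *Hsd17b13* and 3512 for *Plin2*, while their longest transcripts have 1708 and 1888. The order of *Hsd17b13* and *Plin2* therefore depends on the length used. In CPM, *Plin2* was at 690 ± 126 and *Hsd17b13* at 573 ± 59.2 in controls. With the same exon lengths, *G0s2* (357 ± 80.0 RPKM), *Plin2* (349.8 ± 51.1) and *Hsd17b13* (278 ± 56.9) did not separate beyond their SDs in SHMT2 HKO livers. This too depends on the length taken for *Plin2*, whereas *G0s2* has 871 bases by either length. In CPM, *Plin2* was at 1228 ± 179 and *G0s2* at 311 ± 69.6 in these livers. *Cidea* was last in controls, at 2.16 ± 0.279 RPKM below *Plin4* at 7.77 ± 1.94, and in SHMT2 HKO livers, at 41.2 ± 18.5, it was within the spread of *Plin5* at 44.4 ± 13.3.

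Fold changes depended on how libraries were scaled. Without TMM the median of all genes shifted by -0.42 on the log2 scale, and with library sizes from the ERCC spike-in RNAs by -0.72. Without TMM, 2 droplet genes were called higher (3.35% of all genes), *Cidea* (3.83) and *G0s2* (1.13), while *Cideb* was at 0.40 (adjusted p = 0.0508, edgeR) and *Plin2* at 0.42 (0.161). With ERCC sizes 1 was called (0.665% of all genes), *Cidea* at 3.56, while *G0s2* was at 0.84 (adjusted p = 0.207, edgeR), *Plin2* at 0.15 (0.790) and *Cideb* at 0.10 (0.875). The spike-ins made up 1.35% to 2.75% of counts, with both extremes in SHMT2 HKO livers. *Cidea* and then *G0s2* had the highest fold changes of the 10 genes in each of these fits.

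**Figure D3:**
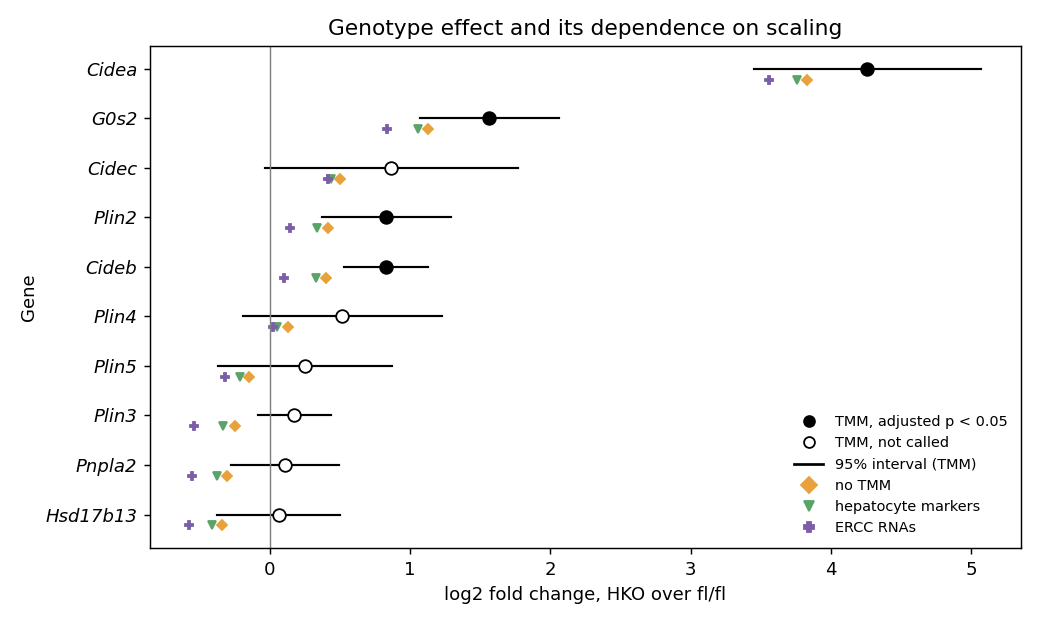
Log2 fold change (SHMT2 HKO over SHMT2 fl/fl) of each droplet gene under TMM with its 95% interval (circles, filled where the adjusted p is under 0.05), and its estimate under 3 other scalings. *Cidea* stays at 3.56 or above, *Plin2* and *Cideb* move toward 0, and *Plin5*, *Plin3*, *Pnpla2* and *Hsd17b13* turn from above to below 0.

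Levels of cell type markers also differed between genotypes, where 12.5% of all genes were called higher and 16.5% lower. Of 8 hepatocyte markers 3 were higher and 0 lower, with a median log2 fold change of 0.59 and sums of 53591 to 65100 CPM in controls against 69630.4 to 99087. All 6 cholangiocyte markers were lower (956 to 1188 CPM against 128.0 to 246), as were 4 of 8 stellate cell or fibroblast markers, of which 1 was higher (1272 to 1342 against 354 to 867), and 3 of 6 T or B cell markers (11.4 to 15.7 against 3.06 to 4.203). Macrophage sums overlapped (233 to 274 against 218 to 277 CPM, 2 of 8 higher and 4 lower), and endothelial sums did not (160.4 to 185 against 227 to 266, 2 of 6 higher). In bulk liver, fewer cells of a type and less RNA per cell cannot be told apart. With library sizes set by the 8 hepatocyte markers, a setting chosen after seeing the data, 2 droplet genes were called higher (2.67% of all genes), *Cidea* (3.76, adjusted p = 0.000557, edgeR) and *G0s2* (1.06, 0.00572), while *Plin2* was at 0.34 (0.244) and *Cideb* at 0.33 (0.122). The part of the other cell types in the droplet genes was not tested.

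With other tools and filters the count of droplet genes called higher was 5 in DESeq2 (15.8% of all genes) and 4 in limma-voom (12.4%), with upper-quartile factors (9.08%), with no filter beyond 1 count (5.75%) and at the study's cutoff (19.5%). That cutoff, p under 0.05 and adjusted p under 0.25, was applied here to the edgeR p-values, whereas the study applied it to limma-voom. It was also 4 with at least 10 counts in every liver (12.4%), without robust dispersions (12.4%) and with a replicate block (8.68%). Leaving out SHMT2 fl/fl mouse 1, 2 or 3 left 4, 3 and 3 (5.76%, 5.2% and 4.93% of all genes). Leaving out SHMT2 HKO mouse 1, 2 or 3 left 6, 3 and 4 (12%, 6.72% and 15%).

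SHMT2 HKO mouse 1 was the lowest of its group for 9 of the 10 droplet genes, while 35.3% of all genes tested had their lowest SHMT2 HKO value in that mouse. The exception was *G0s2*, lowest in mouse 3. Mice 2 and 3 were each the highest for 5 genes. *Cidec* was 3.47-fold and *Plin4* 2.32-fold higher in mouse 3 than in mouse 1, and *Plin2* 1.32-fold. The log2 range of *Cidec* was 1.79 among SHMT2 HKO mice and 0.32 among controls, where the medians over all genes were 0.53 and 0.31.

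**Figure D4:**
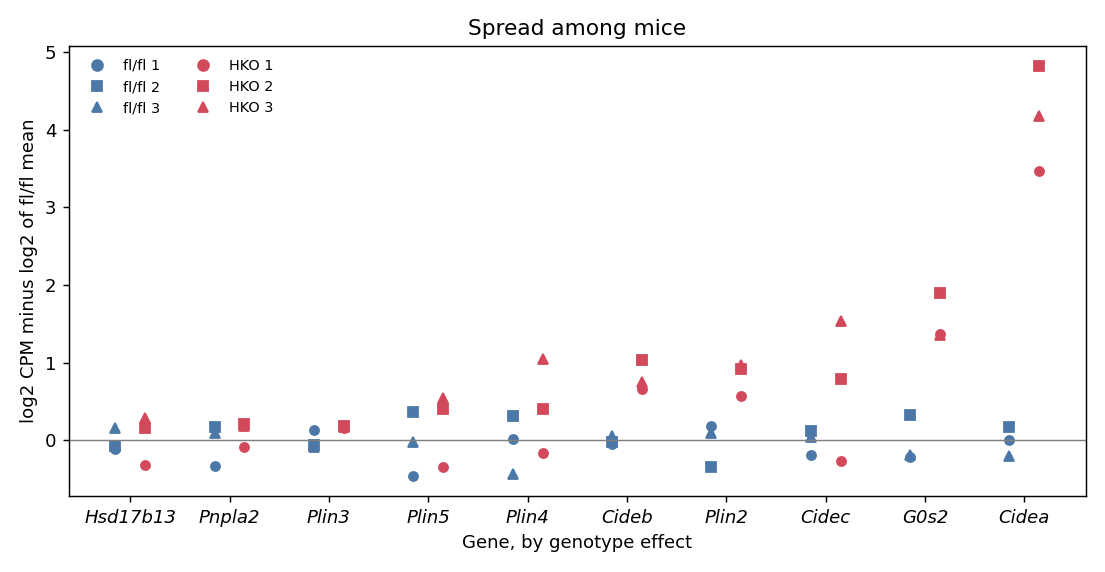
Log2 CPM of each droplet gene in each liver minus the log2 of the SHMT2 fl/fl mean (0 line), with genes ordered by genotype effect. SHMT2 HKO mouse 1 (red circles) is the lowest of its group for 9 of 10 genes, and *Cidec* spans 1.79 log2 units among SHMT2 HKO mice.

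The other genes of droplet biology were read from 5 lists of 77 genes, of which 75 passed the filter. Of these, 34 were higher and 3 lower in SHMT2 HKO livers (edgeR), beside 12.5% and 16.5% of all genes. Without TMM 14 were higher and 5 lower, beside 3.35% and 30.6% of all genes. With hepatocyte marker sizes 11 and 7 were, beside 2.67% and 35.4%, and with ERCC sizes 2 and 3, beside 0.665% and 17.1%. Without SHMT2 HKO mouse 1, 41 were higher and 3 lower, where 12% of all genes were called higher.

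Of 12 other lipolysis genes tested, 8 were higher and 0 lower, beside 12.5% and 16.5% of all genes, with a median log2 fold change of 0.87. *Mgll*, whose product releases the last fatty acid from monoacylglycerol, was at 163, 171 and 187 CPM in controls and at 444, 538 and 494 in livers of SHMT2 HKO mice (log2 fold change 1.501, standard error 0.14, adjusted p = 0.000887, edgeR). *Lipe*, the gene of hormone-sensitive lipase, rose by 1.09 and *Abhd5*, the gene of the activator of adipose triglyceride lipase, by 0.55 (adjusted p = 0.00369 and 0.0275, edgeR). *Pnpla3*, a relative of *Pnpla2* whose product also sits on droplets, had the largest change of the list, from 1.03, 0.828 and 1.75 to 6.49, 14.7 and 5.12 CPM (log2 fold change 2.85, adjusted p = 0.00434, edgeR). The carboxylesterase gene *Ces1f* rose by 1.504, with the limit that its reads may be shared with close paralogs. *Lipa* (0.49), *Ces1g* (0.17), *Ddhd2* (0.25) and *Hilpda* (0.16), the last encoding another inhibitor of the lipase, were not called. Without SHMT2 HKO mouse 1, *Lipa* was called (0.68, adjusted p = 0.00763, edgeR) and the others were not. *Plin1* did not pass the filter, with 100 counts in SHMT2 HKO mouse 1 and 1 to 5 in the other livers.

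Among droplet formation genes, 6 of 15 were higher and 2 lower (median 0.38), beside 12.5% and 16.5% of all genes. *Fitm1* and *Fitm2* encode proteins of the endoplasmic reticulum that help droplets form. *Fitm1* was at 21.6, 21.1 and 17.04 CPM in controls and at 88.1, 130.4 and 60.7 with SHMT2 HKO (log2 fold change 2.23, adjusted p = 0.00154, edgeR), and *Fitm2* rose by 0.82 (adjusted p = 0.0292, edgeR). The seipin gene *Bscl2*, which marks the site of droplet birth, was at 0.51 (adjusted p = 0.0593, edgeR). Its partner *Ldaf1* (*Tmem159* in the annotation) fell by 1.47 in log2 units (adjusted p = 0.00269, edgeR), and *Pld1*, a phospholipase D gene, fell by 1.36. *Arf1* (0.12), *Rab18* (0.33) and *Pcyt1a* (0.38) were not called. Without SHMT2 HKO mouse 1, *Pcyt1a* was called (0.52, adjusted p = 0.0151, edgeR), and *Arf1*, *Rab18* and *Bscl2* were not.

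Of 17 other genes of droplet-bound proteins, 8 were higher and 1 lower (median 0.51), beside 12.5% and 16.5% of all genes. The 3 largest rises, *Nsdhl* (1.43), *Hsd17b7* (1.34) and *Lss* (1.14), were in genes of cholesterol synthesis enzymes. *Cav1*, a caveolin gene strongly expressed by endothelial cells and adipocytes, fell by 1.82 on the log2 scale. *Mettl7b* (0.51), *Rab7* (0.13), *Dhrs3* (-0.071) and *Aup1* (0.43) were not called.

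Of 14 transcription factor genes, 5 were higher and 0 lower (median 0.44), beside 12.5% and 16.5% of all genes. *Ppara*, the fatty acid sensor of the fasted liver, was at 37.5, 45.3 and 53.1 CPM in controls and at 78.5, 107 and 106 with SHMT2 HKO (log2 fold change 1.10, adjusted p = 0.00369, edgeR). *Pparg*, the gene of the receptor that drives fat storage in adipocytes, was at 21.7, 15.1 and 19.2 CPM in controls against 31.3, 31.7 and 40.1 (0.88, adjusted p = 0.00725, edgeR). Neither gene's groups overlapped. *Mlxipl*, which encodes the carbohydrate-responsive factor ChREBP, rose by 1.09, and *Nr1h3*, the gene of the oxysterol receptor LXR alpha, by 0.73. *Hnf4a* (0.41), *Rxra* (0.45), *Srebf1* (0.57) and *Epas1* (0.43) were not called. Without SHMT2 HKO mouse 1, *Epas1* was called (0.55, adjusted p = 0.0271, edgeR) and the others were not.

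Of 17 other PPAR target genes tested, 7 were higher and 0 lower (median 0.73), beside 12.5% and 16.5% of all genes. SHMT2 HKO mouse 1 was the lowest of its group for 16 of these 17 genes. Over all genes tested, 35.3% had their lowest SHMT2 HKO value in that mouse. *Mogat1*, a monoacylglycerol acyltransferase gene, rose by 1.96, and *Fabp1*, the gene of liver fatty acid binding protein, by 1.68. *Cyp4a10* (1.44), *Cyp4a14* (0.92), *Creg1* (0.37) and *Ehhadh* (0.16) were not called. *Cyp4a14* was at 132, 350.0 and 261 CPM in controls and at 82.2, 854 and 472 in SHMT2 HKO livers, so that mouse 1 was below every control and mice 2 and 3 were above every control, as for *Cidec*. Without mouse 1, a value added after seeing the data, the log2 fold change of *Cyp4a14* was 1.42 (adjusted p = 0.0333, edgeR). Without it *Cyp4a10* (1.79, adjusted p = 0.0595), *Creg1* (0.47, 0.0690) and *Ehhadh* (0.42, 0.139) were again not called. Of the remaining genes not called with all mice, *Cd36* (0.80, adjusted p = 0.00562), *Pdk4* (1.15, 0.0128) and *Angptl4* (0.81, 0.0171) were called without mouse 1 (edgeR). *Acot1*, *Acot2* and *Fgf21* were not.

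**Figure D5:**
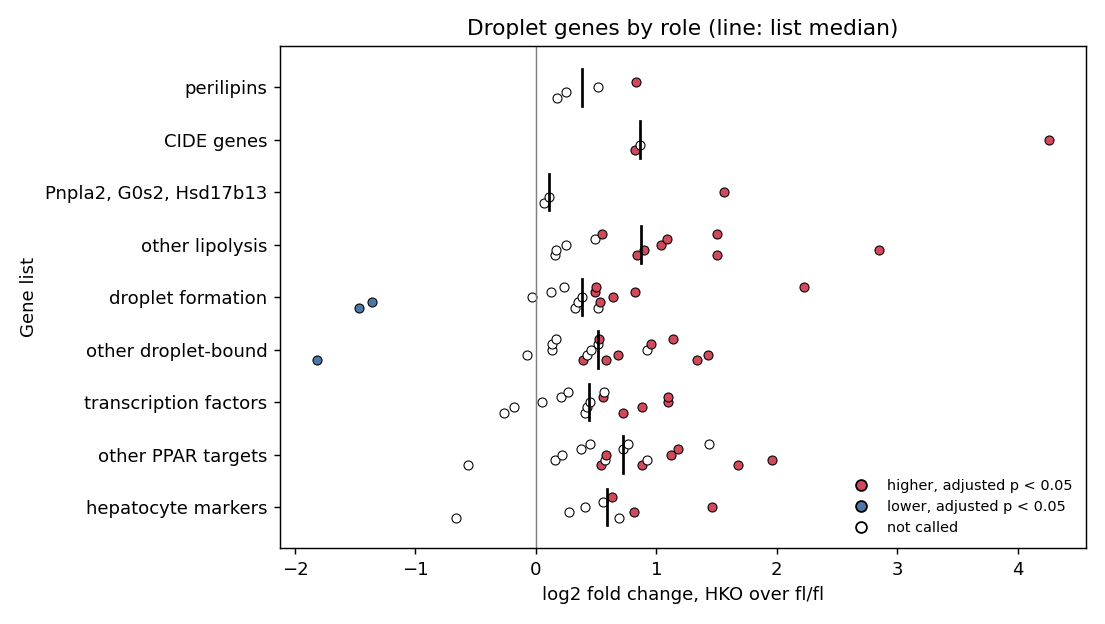
Log2 fold change (SHMT2 HKO over SHMT2 fl/fl) of every tested gene of the droplet lists and of hepatocyte markers, coloured by call, with the median of each list as a line. The list medians lie between 0.11 and 0.87, and the genes called lower are *Ldaf1*, *Pld1* and *Cav1*.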

How the data were processed

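Liver RNA of 6 mice was sequenced in read pairs. The deposited values are raw counts per Ensembl gene, which the authors made by trimming with Trimmomatic (0.36) and alignment with STAR (2.5.2b) to GRCm38 with ERCC sequences; the submitters' processing notes also name featureCounts and Subread (1.5.2). Of 49763 rows, 92 were ERCC RNAs and entered neither library sizes nor tests, except where ERCC sizes are named. Symbols, exon lengths and overlaps came from GENCODE M21 (GRCm38), in which 259 gene IDs had no entry.

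Genes were filtered by filterByExpr, scaled by TMM and compared by the robust quasi-likelihood F test of edgeR (4.0.16), with Benjamini-Hochberg adjustment over 16089 genes. The study used limma-voom, here an alternative (limma 3.58.1), as were DESeq2 (1.42.0), other scalings, filters and dispersions, a replicate block and leaving out each mouse. Shares and ratios were compared by an exact permutation test (scipy 1.17.1). The code was tested on simulated counts. Samples of a genotype differed beyond sampling noise (chi-square per gene 23.6 to 140.1). The labels do not say how the mice relate, so p-values measure only the spread between these samples.

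Members and lists were chosen with earlier results of these data known. Named were *Shmt2*, the 10 members, from each list the called genes among its 4 largest changes and up to 4 genes not called, by mean level, and *Abhd5*, *Pnpla3*, *Plin1*, *Lipe*, *Mgll*, *Hilpda*, *Bscl2*, *Ppara* and *Pparg*. *Nop9*, *Ucp1*, *Adipoq*, *Cd36*, *Pdk4*, *Angptl4*, *Acot1*, *Acot2*, *Fgf21* and the genes of the closing section were chosen after their values were seen. For 1 gene that this rule names, the result is not reported here.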

Additional observations from a re-analysis of the deposited data

How the results depend on the processing

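The count of droplet genes called higher was 4 with TMM (12.5% of all genes) and 2 without TMM (3.35%). It was 2 with hepatocyte marker sizes (2.67%) and 1 with ERCC sizes (0.665%). With a mouse left out it was 3 to 6, beside 4.93% to 15% of all genes. Over all genes, 2012 were higher and 2651 lower with TMM, 539 and 4923 without it, 429 and 5701 with hepatocyte marker sizes, and 107 and 2759 with ERCC sizes. At the study's cutoff, applied to the edgeR p-values, 3143 were higher. With a mouse left out 805 to 2521 were higher and 1621 to 3076 lower. Of the other droplet genes, 34 were higher and 3 lower with TMM, and 14 and 5 without it. With hepatocyte marker sizes 11 and 7 were, and with ERCC sizes 2 were higher. With a mouse left out 18 to 41 were higher, beside 4.93% to 15% of all genes. Without TMM, with ERCC sizes and with hepatocyte marker sizes, in this order, the log2 fold change turned to -0.25, -0.54 and -0.33 for *Plin3*, -0.15, -0.32 and -0.21 for *Plin5*, -0.30, -0.56 and -0.38 for *Pnpla2* and -0.34, -0.57 and -0.41 for *Hsd17b13*, and the latter was -0.025 with upper-quartile factors; none of these was called. With a mouse left out, *Pnpla2* ranged over -0.029 to 0.20 and *Hsd17b13* over -0.079 to 0.22. Hepatocyte marker sizes shifted the median gene by -0.50, and the cause of the differences between scalings was not tested. Correlations of deviations from the group mean were -0.077 to 0.013 between mice with the same number and -0.024 to 0.081 between the others. So few mice can neither show nor exclude a pairing by number, and the labels state none. With the number as a replicate block, 4 droplet genes were higher, *Plin2* at 0.84 (adjusted p = 0.0492, edgeR), and 1397 genes higher and 2187 lower over all genes.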

Other observations

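*Cfd*, the complement factor D gene on the list of adipocyte markers, was at 1.10, 2.90 and 1.98 CPM in SHMT2 fl/fl livers and at 91.1, 62.2 and 10.9 in SHMT2 HKO mice 1, 2 and 3, without overlap (log2 fold change 4.81, adjusted p = 0.00651, edgeR). Without mouse 1, added after seeing the data, it was 4.23 (adjusted p = 0.0209). In SHMT2 HKO mice 2 and 3, *Ucp1* and *Adipoq* had 0 counts. Macrophage markers went both ways. *Clec4f* and *Timd4*, genes of resident liver macrophages, were higher in SHMT2 HKO livers by 2.83 and 3.57 on the log2 scale (adjusted p = 0.00391 and 0.00149, edgeR). *Cd68*, *Csf1r*, *Cd14* and *Trem2* were lower, with log2 fold changes of -0.85, -0.69, -1.79 and -1.76 (adjusted p = 0.00938, 0.00931, 0.00276 and 0.0192, edgeR). The other 2 of the 8 markers, *Adgre1* (-0.72, adjusted p = 0.0588) and *Marco* (1.55, 0.245), were not called.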
